A study of Mus musculus with 54 samples.

Results

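Livers of mice fed the AMLN diet, which is rich in fat, fructose and cholesterol and induces steatohepatitis, were compared by RNA-seq with and without hepatocyte Flcn. The comparison took the 6 libraries labelled AMLN LiFKO or AMLN Control, 3 of each, out of 15 RNA-seq libraries and 54 samples in all. All mice carried floxed Flcn (Flcn lox/lox) and all received an adeno-associated virus of serotype AAV8. In LiFKO livers the virus carried Cre under TBG, a promoter active in hepatocytes, so other liver cells keep the gene. Control livers received the same kind of virus with GFP in place of Cre. Another AMLN group, labelled DKO, came from a separate line in which Tfe3 was deleted throughout the body as well (Flcn lox/lox;Tfe3 -/Y) and received Cre. Chow LiFKO and chow Control livers, 3 libraries each, had the same viruses and a normal diet. Diet ran for 17 to 18.5 weeks, and the liver was taken after a fast of 4 to 6 hours. The labels used here state neither the strain nor the age of the mice, nor whether the libraries of a group came from different mice. The p-values therefore measure the spread between libraries, estimated over all 15 RNA-seq libraries.

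Folliculin, the product of Flcn, works with its partners FNIP1 and FNIP2 on the surface of the lysosome, where it sets the nucleotide state of the GTPases RagC and RagD. In that state these GTPases let the kinase complex mTORC1 phosphorylate the transcription factors TFE3 and TFEB, which then stay in the cytoplasm. Without folliculin TFE3 enters the nucleus and binds promoters that carry the sequence CACGTG or close relatives of it, many of them at genes of the lysosome. In the liver, mTORC1 is also known for its hold on SREBP-1c, the transcription factor that switches on lipogenesis.

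Expression was deposited as log2 values for 13815 genes, quantile normalized by the authors and not scaled for gene length, so levels were compared between libraries and not between genes. Replicates correlated at 0.9793 to 0.9821 in AMLN LiFKO and at 0.9742 to 0.9878 in AMLN Control over all genes. The first principal component of the 6 libraries (57.7% of the variance) separated the genotypes, with -39.4 to -36.4 in AMLN LiFKO and 35.1 to 41 in AMLN Control. AMLN Control replicate 3 stood apart on the second (17.1%), at -36.4 against 20.3 and 14.9 in the other Control libraries. AMLN LiFKO replicate 3 was also the lowest of its group there, at -18.6 against 14.3 and 5.5. For several of the results below the value without AMLN Control replicate 3 is also given. Of 11 measured hepatocyte markers 3 fell and the other 8 did not pass the test. The marker transcripts summed to 21.781 to 21.842 (log2) in AMLN LiFKO and 22.273 to 22.356 in AMLN Control. Albumin (Alb, chosen after its values were seen) weighs most in that sum, with rank 2 in AMLN LiFKO (20.65) and rank 1 in AMLN Control (21.47), and did not pass the test (adjusted p = 0.0545). In whole liver, fewer cells of a type and less RNA per cell cannot be told apart.

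Flcn itself was at 10.25, 10.56 and 10.43 in AMLN LiFKO libraries and at 10.98, 10.92 and 11.06 in AMLN Control libraries. The groups did not overlap, yet the gap was small (-0.57, SE 0.17, limma adjusted p = 0.0257), and the call was lost without AMLN LiFKO replicate 1 or 3 or AMLN Control replicate 1 or 3, and when libraries were centred on hepatocyte markers. Exon-level reads are not used here, and hepatocytes with the floxed exons removed can still give Flcn transcript, so this value is a weak check of the deletion. Tfe3 and its relatives Tfeb, Mitf and Tfec, the MiT-TFE transcription factors, gave no call by limma, with log2 differences of -0.24, -0.32, -0.04 and -0.03. Of these 4 genes 1, Tfeb, had an unadjusted p under 0.05 (adjusted p = 0.0982). Tfeb, Mitf and Tfec lie outside the rule for named genes and were taken to complete the family.

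Across all genes 2722 of 13815 were called (19.7%): 1392 rose (10.1% of those tested) and 1330 fell (9.63%) in AMLN LiFKO against AMLN Control at a Benjamini-Hochberg adjusted p under 0.05 (limma). With libraries centred on hepatocyte markers these counts were 877 and 564. The median over all genes was -0.015, and the median absolute change among called genes was 0.63. By more than 1 on the log2 scale, 396 genes rose and 377 fell, and by more than 2, 116 rose and 110 fell. AMLN LiFKO and AMLN Control values did not overlap for 4892 genes (35.4%), with LiFKO higher in 2370 (17.2%) and lower in 2522 (18.3%). These shares are the background for the gene lists described next, each made of known members of a pathway or known markers of a cell type. Most list members named below were picked by p, so a lack of overlap among them adds no support.

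The genes around folliculin at the lysosome were among those that changed. Of 25 measured genes of folliculin, the Rag GTPases and mTORC1 regulators, 8 rose and 3 fell. Rragd, which encodes RagD, was at 12.89, 12.69 and 12.96 in AMLN LiFKO and at 7.95, 8.49 and 7.90 in AMLN Control, a 26.6-fold difference (4.73, SE 0.23, adjusted p = 2.34e-08). Every LiFKO library was above 12 and every Control library below 9. Fnip2, a partner of folliculin, had 14.09, 13.38 and 14.13 in AMLN LiFKO and 11.72, 11.54 and 11.39 in AMLN Control (2.32, SE 0.18, adjusted p = 1.87e-06). Its paralog Fnip1 rose by 1.04 (SE 0.14), and Rragc, which encodes RagC, rose by 0.80 (SE 0.10). Tsc1, a subunit of the complex that restrains mTORC1, stood at 12.25, 12.31 and 12.27 in AMLN LiFKO and at 11.13, 11.12 and 11.07 in AMLN Control (1.17, SE 0.11). These 5 genes had LiFKO values above the highest Control value, as did 17.2% of all genes. Their calls held in each fit that left out an AMLN library. The falls besides Flcn were slight, -0.35 for Rraga, which encodes RagA, and -0.30 for Lamtor2, a subunit of the Ragulator anchor (both chosen after their values were seen). The count of falls was 1 without AMLN LiFKO replicate 1 or 3, and 0 with hepatocyte centring.

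Most measured hydrolases of the lysosomal lumen rose. Of 45 measured hydrolases and cofactors 27 rose (24 to 27 when any 1 AMLN library was left out), the other 18 did not pass the test, and the median change was 0.49 against -0.015 over all genes. Ctsz, a carboxypeptidase, was at 15.40, 15.51 and 15.45 in AMLN LiFKO and at 13.30, 13.64 and 13.87 in AMLN Control (1.85, SE 0.12, adjusted p = 3.28e-07). Dpp7, a dipeptidyl peptidase, was at 11.94, 11.92 and 12.04 in AMLN LiFKO and at 10.41, 10.40 and 10.18 in AMLN Control (1.64, SE 0.10, adjusted p = 3.02e-07). Both genes had Control and LiFKO values more than 1 apart in every pair of libraries. The sialidase gene Neu1 rose by 1.54 (SE 0.10), Ctsa, whose product shields Neu1 in the lysosome, by 1.23 (SE 0.09), and the tripeptidyl peptidase gene Tpp1 by 1.20 (SE 0.09). Ctsd, the aspartyl protease cathepsin D, differed by 0.38 (SE 0.10, adjusted p = 0.0184) and was not called without AMLN LiFKO replicate 3 or AMLN Control replicate 3.

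The lysosomal membrane moved with the lumen. Of 35 measured subunits of the proton pump (V-ATPase) and other lysosomal membrane proteins, 28 rose (24 to 28 with 1 AMLN library left out) and 1 fell, with a median of 0.53. Mcoln1, a calcium channel of the lysosome, was at 12.09, 12.15 and 12.14 in AMLN LiFKO and at 10.91, 10.86 and 10.78 in AMLN Control (1.28, SE 0.09, adjusted p = 6.01e-07). Its LiFKO values lay within a range of 0.1 and more than 1 above the highest Control value. Atp6v1a, the catalytic subunit of the pump, rose by 1.03 (SE 0.10) and Atp6v0b, a subunit of its membrane sector, by 0.81 (SE 0.08). Clcn7, a chloride and proton exchanger, rose by 0.82 (SE 0.08), and Lamp1, an abundant membrane glycoprotein, by 0.62 (SE 0.09). The fall was in Atp6v0d2, a pump subunit isoform that in mouse liver is known to be higher in females (6.11, 6.58 and 6.36 in AMLN LiFKO and 7.81, 7.87 and 7.93 in AMLN Control, -1.52, SE 0.26). In libraries labelled DKO Mcoln1 was at 10.83, 11.02 and 11.20 and Rragd at 9.16, 8.14 and 8.12, all below the LiFKO values. The DKO mice were a separate line, so loss of Tfe3 and line cannot be told apart there. The mean of the 35 genes was 11.866 ± 0.007 in AMLN LiFKO, 11.23 ± 0.06 in libraries labelled DKO and 11.318 ± 0.083 in AMLN Control (SD, n = 3 each).

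**Figure D1:**
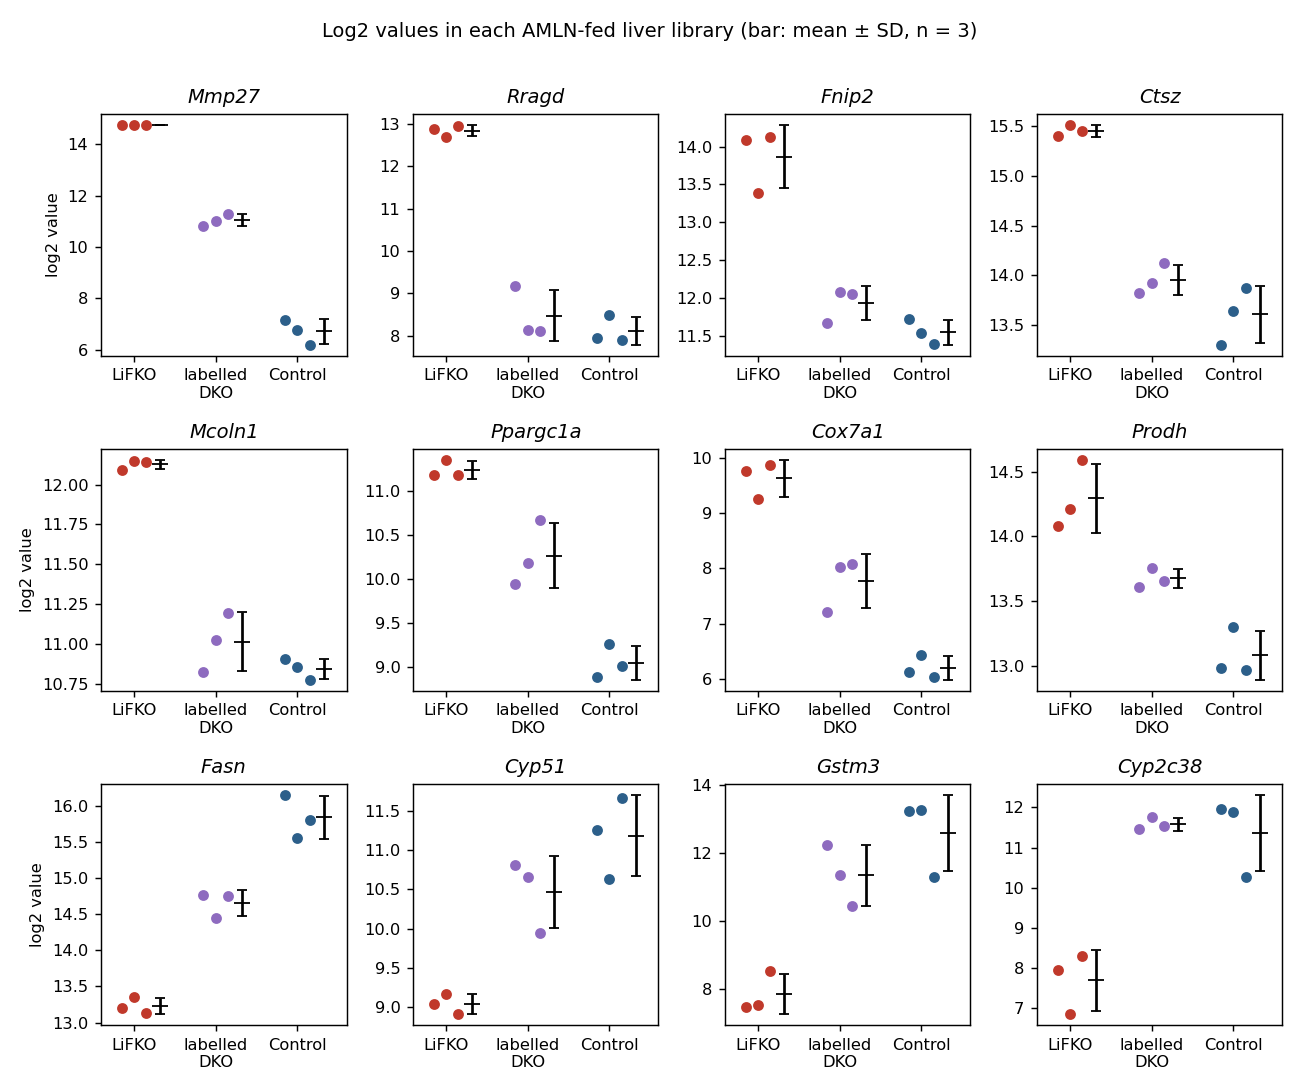
Log2 values of 12 genes in the 9 AMLN-fed libraries, with AMLN LiFKO in red, libraries labelled DKO in purple and AMLN Control in blue. Points are libraries and bars show the mean ± SD (n = 3). Rragd in AMLN LiFKO lies between 12.69 and 12.96, and in AMLN Control between 7.90 and 8.49; Fasn lies between 13.13 and 13.35 in AMLN LiFKO and between 15.55 and 16.15 in AMLN Control.

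Autophagy genes moved in smaller number. Of 36 measured, 9 rose and 2 fell, with a median of 0.09, and 1 fell without AMLN LiFKO replicate 1 or AMLN Control replicate 1. With libraries centred on hepatocyte markers 5 rose and 1 fell. Gabarapl1, which encodes a protein of the autophagosome membrane, was at 15.77, 15.57 and 15.80 in AMLN LiFKO and at 14.39, 14.50 and 14.19 in AMLN Control (1.36, SE 0.12, adjusted p = 3.13e-06). Map1lc3b, of the same protein family, rose by 0.79 (SE 0.07), Atg7, the enzyme that starts their conjugation to lipid, by 0.83 (SE 0.10), and Ulk1, the kinase that starts autophagy, by 0.58 (SE 0.10). These 4 genes kept their calls in each fit that left out an AMLN library. The receptor gene Sqstm1 stood at 14.46, 14.44 and 14.64 in AMLN LiFKO and at 14.97, 14.88 and 14.65 in AMLN Control, which did not pass the test (-0.32, SE 0.11, adjusted p = 0.057) and passed it without AMLN LiFKO replicate 3 or AMLN Control replicate 3.

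Promoters of some of these genes are shown here because CACGTG stands close to the start in several that rose, and is not in the window of others that rose more. The sequences are RefSeq's, build GRCm38.p6, plus strand, 5′ to 3′, from 250 bases before to 50 after the start, with each CACGTG in capitals. Mcoln1, at chr8:3500269-3500568, holds 2 copies:
Mcoln1: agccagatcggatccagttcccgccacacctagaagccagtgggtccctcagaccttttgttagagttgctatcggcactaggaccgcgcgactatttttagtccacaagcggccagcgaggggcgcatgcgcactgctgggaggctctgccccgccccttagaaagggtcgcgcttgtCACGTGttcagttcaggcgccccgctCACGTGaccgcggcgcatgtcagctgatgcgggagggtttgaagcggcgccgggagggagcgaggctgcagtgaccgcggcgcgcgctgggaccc
Lamp1, at chr8:13158911-13159210, holds 4 copies, Clcn7, at chr17:25133141-25133440, and Ctsa, at chr2:164833523-164833822, hold 2 copies each at the start shown and none at another start in the table, and Fnip1, at chr11:54437929-54438228, holds 1 copy:
Lamp1: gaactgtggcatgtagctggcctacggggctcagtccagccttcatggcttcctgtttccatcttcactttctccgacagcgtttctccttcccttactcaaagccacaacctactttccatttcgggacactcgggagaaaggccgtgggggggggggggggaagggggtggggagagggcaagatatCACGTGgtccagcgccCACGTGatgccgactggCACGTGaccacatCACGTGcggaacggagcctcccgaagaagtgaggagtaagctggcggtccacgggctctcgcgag
Clcn7: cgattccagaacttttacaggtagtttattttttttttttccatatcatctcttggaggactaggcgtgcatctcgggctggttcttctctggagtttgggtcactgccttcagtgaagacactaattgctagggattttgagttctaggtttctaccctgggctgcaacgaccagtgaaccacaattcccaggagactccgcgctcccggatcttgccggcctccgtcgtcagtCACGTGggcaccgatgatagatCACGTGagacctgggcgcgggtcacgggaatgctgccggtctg
Ctsa: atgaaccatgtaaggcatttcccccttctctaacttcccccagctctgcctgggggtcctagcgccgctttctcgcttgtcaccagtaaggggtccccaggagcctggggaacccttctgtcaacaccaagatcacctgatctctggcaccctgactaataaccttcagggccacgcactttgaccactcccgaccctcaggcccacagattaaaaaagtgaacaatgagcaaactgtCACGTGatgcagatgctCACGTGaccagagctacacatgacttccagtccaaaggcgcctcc
Fnip1: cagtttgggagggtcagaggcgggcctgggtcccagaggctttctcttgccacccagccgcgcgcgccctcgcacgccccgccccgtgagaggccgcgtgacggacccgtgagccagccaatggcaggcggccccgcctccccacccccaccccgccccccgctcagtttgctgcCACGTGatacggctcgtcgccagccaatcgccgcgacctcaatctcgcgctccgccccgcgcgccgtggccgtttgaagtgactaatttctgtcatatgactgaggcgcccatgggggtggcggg
Rragd, at chr4:32982748-32983047, and Mmp27, at chr9:7571146-7571445, have no CACGTG in these 300 bases:
Rragd: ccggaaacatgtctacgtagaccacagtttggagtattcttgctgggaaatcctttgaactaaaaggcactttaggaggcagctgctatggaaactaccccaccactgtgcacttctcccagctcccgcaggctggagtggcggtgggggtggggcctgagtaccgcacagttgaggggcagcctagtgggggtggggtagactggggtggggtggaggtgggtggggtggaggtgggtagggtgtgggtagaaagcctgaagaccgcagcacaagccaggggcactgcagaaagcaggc
Mmp27: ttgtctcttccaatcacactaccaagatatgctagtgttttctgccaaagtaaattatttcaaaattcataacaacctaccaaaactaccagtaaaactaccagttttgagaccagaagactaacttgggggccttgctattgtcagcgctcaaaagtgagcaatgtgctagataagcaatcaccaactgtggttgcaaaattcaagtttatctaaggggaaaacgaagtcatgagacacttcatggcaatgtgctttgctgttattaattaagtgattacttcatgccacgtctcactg

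Over whole sets, CACGTG, which reads the same on both strands, stood in 15.05% of promoters of genes that rose (188 of 1249) and in 8.50% of promoters of genes that fell (111 of 1306). It stood in 9.34% of promoters of genes without a call and in 9.83% of promoters of all tested genes found in the promoter table (1217 of 12386). Over all 32851 promoters of the table, measured or not, the share was 7.15%. Promoters of lysosomal hydrolase genes held it in 31.58% of cases (12 of 38) and those of lysosomal membrane genes in 30.0% (9 of 30). Those of fatty acid synthesis genes held it in 3 of 30 cases, and those of respiratory chain genes in 9.86% (7 of 71). Genes that rose by more than 2 had it in 6.59% (6 of 91). The longer TCACGTG, searched on both strands and a subset of the CACGTG matches, stood in 10.25% of promoters of genes that rose, 4.21% of those that fell and 5.55% of those without a call. Genes can have more than 1 promoter in the table, and a match is a description of the letters only.

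Peaks of TFE3 were deposited for livers of chow-fed mice, so they describe binding on another diet. The authors called them on 1 pooled set of reads per genotype, against an input and against Tfe3 knockout liver, per the file headers. Gene starts could be placed for 9914 of the 13815 genes. Of these, 84.86% of genes that rose in AMLN LiFKO (852 of 1004) had a peak of the chow LiFKO list within 10 kb of the start. The share was 70.93% of genes that fell (737 of 1039) and 67.59% of genes without a call (5320 of 7871). The chow LiFKO list holds 26445 peaks and the chow Control list 11385, and lists of unequal length show no difference in binding. With the chow Control list, chosen after seeing the data, the shares were 56.77% of genes that rose, 38.69% of those that fell and 37.54% of those without a call. All 19 placed hydrolase genes that rose had such a peak in the chow LiFKO list, as did 21 of 22 placed lysosomal membrane genes that rose. The same was so of all 13 placed fatty acid synthesis genes that fell. Most placed members of these lists had such a peak whether called or not. The counts were 32 of 36 hydrolase, 23 of 25 lysosomal membrane and 20 of 21 fatty acid synthesis genes. In the respiratory chain 31 of 40 placed genes that rose had one, and 53 of all 66 placed.

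Single genes differed in which list held their peak. Mmp27, a matrix metalloproteinase gene (mm9 chromosome 9, 7571396 to 7581885), had a peak 56 bases from its start in the chow LiFKO list and none within 10 kb in the chow Control list. It was at 14.75, 14.74 and 14.76 in AMLN LiFKO and at 7.17, 6.79 and 6.20 in AMLN Control. Rragd also had a peak, 433 bases from its start, in the chow LiFKO list and none within 10 kb in the chow Control list. Fnip2, Mcoln1, Tsc1 and Fnip1 had peaks within 10 kb in both lists, at 180, 29, 115 and 139 bases in the chow LiFKO list. The peak at Tsc1 had the highest HOMER score of that list, 245.8 against a median of 18.5 (the authors' peak score). Those at Mmp27 and Rragd scored 14.7 and 25.3. Gpx3, a secreted glutathione peroxidase, which was at 12.07, 11.33 and 13.31 in AMLN LiFKO and at 8.18, 8.05 and 7.93 in AMLN Control, had no peak within 10 kb in either chow list. A further list, from LiFKO livers on the FPC diet, had a peak 3711 bases from the Gpx3 start. Among genes that rose by more than 2, 77.2% had a peak of the chow LiFKO list and 30.4% one of the chow Control list (61 and 24 of 79).

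**Figure D2:**
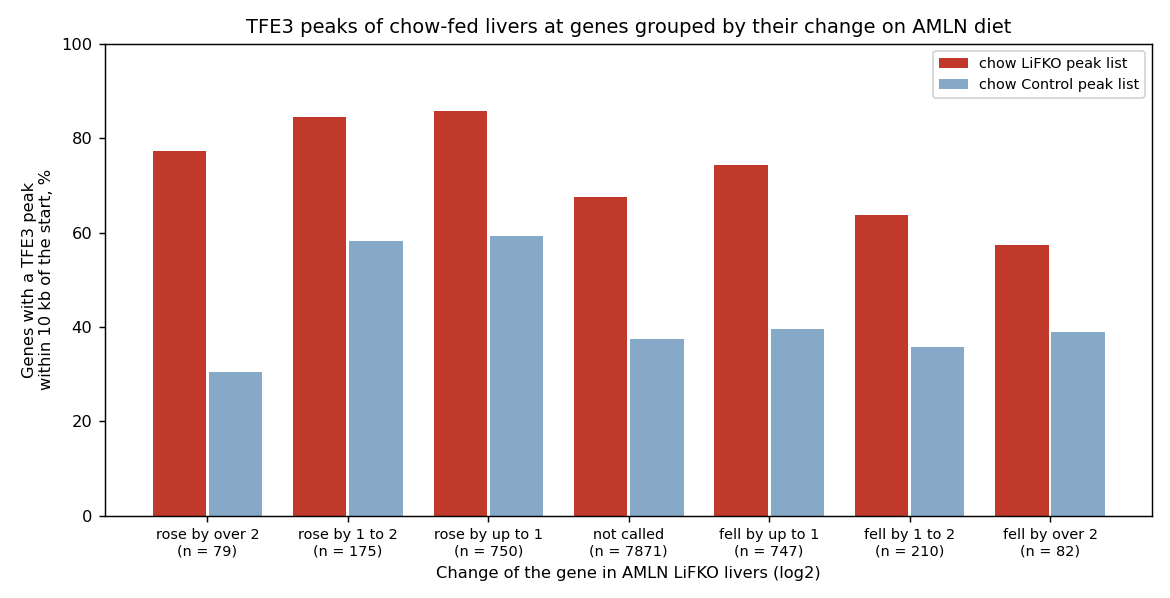
Share of genes with a TFE3 peak of chow-fed liver within 10 kb of the start, by the size of the gene's change in AMLN LiFKO against AMLN Control, with the chow LiFKO list in red and the chow Control list in blue. Bars start at 0, and n is the number of genes placed. Genes that rose by 1 to 2 had 84.6% and 58.3%, and genes without a call had 67.6% and 37.5%.

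Genes of mitochondrial respiration rose in AMLN LiFKO by small steps that were shared by many members. Of 79 measured subunits of the respiratory chain and ATP synthase 49 rose, and the other 30 did not pass the test. The median change was 0.32, and leaving out an AMLN library gave 38 to 48 rises. The count fell to 24 when libraries were centred on hepatocyte markers, while the median change there was 0.37. Cox7a1, the muscle-type isoform of a cytochrome oxidase subunit, was the largest, with 9.77, 9.25 and 9.87 in AMLN LiFKO and 6.13, 6.44 and 6.03 in AMLN Control (3.43, SE 0.28, adjusted p = 1.98e-06). The other rises in the list lay between 0.26 and 0.82. Ndufv1, of the complex that takes electrons from NADH, rose by 0.82 (SE 0.08), Sdhd, of succinate dehydrogenase, by 0.71 (SE 0.07), and Atp5c1, of ATP synthase, by 0.60 (SE 0.07). Of 17 genes of the citric acid cycle and pyruvate entry 10 rose (9 or 10 with 1 AMLN library left out) and 7 did not pass the test. Ogdh, of the oxoglutarate dehydrogenase complex, was at 14.56, 14.27 and 14.52 in AMLN LiFKO and at 13.79, 13.81 and 13.76 in AMLN Control (0.67, SE 0.10). Of 75 mitochondrial ribosomal protein genes 10 rose and 4 fell, a share near the background of all genes. Without AMLN Control replicate 1 or AMLN LiFKO replicate 3 this list had 4 and 5 rises, and its falls numbered 1 to 4 over the left-out libraries, the fewest without AMLN Control replicate 2.

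Ppargc1a, the coactivator that drives mitochondrial gene expression, was at 11.18, 11.36 and 11.18 in AMLN LiFKO and at 8.89, 9.26 and 9.01 in AMLN Control (2.18, SE 0.23, adjusted p = 1.63e-05). Its partner Esrra, a nuclear receptor of mitochondrial genes, rose by 0.69 (SE 0.14). Both are counted in the list of fatty acid oxidation and ketogenesis, where 9 of 32 genes rose and 2 fell. Hadha and Hadhb, the subunits of the trifunctional protein of beta-oxidation, rose by 0.53 and 0.50 (SE 0.09 and 0.11). Hadhb lost its call with hepatocyte centring and was at 0.37 without AMLN Control replicate 3. Ehhadh, a peroxisomal enzyme of the same pathway, was at 14.48, 13.90 and 14.20 in AMLN LiFKO and at 15.71, 15.81 and 14.78 in AMLN Control, and it fell (-1.24, SE 0.25, adjusted p = 0.00278). Cpt1a, which controls the entry of fatty acids into mitochondria, had 16.13, 15.80 and 15.63 in AMLN LiFKO and 15.83, 15.59 and 15.21 in AMLN Control, with overlap between the groups and no call (adjusted p = 0.187). The oxidation list had no stable direction: its median was 0.07, and -0.04 and -0.09 without AMLN LiFKO replicate 1 and AMLN Control replicate 3. Its rises numbered 3 with hepatocyte centring and 5 without AMLN LiFKO replicate 1, its falls 5 without AMLN Control replicate 3, and its falls 1 in each of the fits without AMLN LiFKO replicate 2 or 3 or AMLN Control replicate 1 or 2.

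Genes of fatty acid synthesis and desaturation fell. Of 25 measured 16 fell and 2 rose, with 15 or 16 falls when any 1 AMLN library was left out and a median of -1.18. Fasn, fatty acid synthase, was at 13.20, 13.35 and 13.13 in AMLN LiFKO and at 16.15, 15.55 and 15.81 in AMLN Control, a value 6.11-fold lower in LiFKO. Libraries labelled DKO, at 14.77, 14.45 and 14.74, lay between them. Pnpla3, a lipid droplet hydrolase gene that SREBP-1c induces, was at 4.98, 3.81 and 5.68 in AMLN LiFKO and at 8.20, 7.55 and 9.58 in AMLN Control. Neither gene's groups overlapped. Slc25a1, which exports the citrate used for synthesis, fell by 0.84 (SE 0.10), Pgd, an enzyme that supplies NADPH, by 1.18 (SE 0.13), and the elongase gene Elovl5 by 1.68 (SE 0.26). Acaca, the carboxylase that commits carbon to fatty acids, did not pass the test (-0.39, SE 0.19, adjusted p = 0.172). Its mitochondrial relative Acacb, whose product restrains fatty acid oxidation, was at 14.50, 14.23 and 14.86 in AMLN LiFKO and at 13.14, 13.001 and 13.16 in AMLN Control and rose. Scd1 was the transcript of rank 2 in all AMLN Control libraries, at 20.65 in each, and of rank 5, 8 and 6 in AMLN LiFKO, at 19.12, 18.75 and 18.98. Quantile normalization gives every library the same value at a rank, so the Control value of Scd1 has no spread and its difference (-1.70) is one of ranks.

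Genes of cholesterol synthesis and uptake fell as well. Of 28 measured 15 fell, and the other 13 did not pass the test, with a median of -0.82. Left-out libraries gave 10 to 13 falls, the fewest without AMLN Control replicate 1. Cyp51, a demethylase of sterol synthesis, was at 9.04, 9.17 and 8.91 in AMLN LiFKO and at 11.26, 10.63 and 11.67 in AMLN Control (-2.15, SE 0.36, adjusted p = 0.000703). The sterol carrier gene Stard4 was at 10.77, 10.70 and 10.85 in AMLN LiFKO and at 12.27, 12.09 and 12.57 in AMLN Control (-1.54, SE 0.19). Srebf2, the main activator of the pathway, did not pass the test (-0.26, SE 0.12, adjusted p = 0.166).

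Lipid droplet and triglyceride genes split. Of 30 measured 5 rose and 9 fell. Cidea, which fuses lipid droplets, was at 6.20, 3.61 and 3.16 in AMLN LiFKO and at 10.58, 11.05 and 9.33 in AMLN Control (-6.00, SE 0.93, adjusted p = 0.000424). All LiFKO libraries lay more than 3 below the lowest Control library. G0s2, an inhibitor of triglyceride lipolysis, was at 11.20, 11.29 and 10.49 in AMLN LiFKO and at 13.44, 13.64 and 12.44 in AMLN Control and fell by 2.18 (SE 0.26). Fitm1, a protein of droplet formation, fell by 2.30 (SE 0.37), and Pparg, a nuclear receptor of fat storage, by 0.83 (SE 0.23, adjusted p = 0.0179), with a call lost without AMLN LiFKO replicate 3 or AMLN Control replicate 2. The droplet coat genes Plin4 and Plin3 and Dgat2, the last enzyme of triglyceride synthesis, rose instead. Plin4 was at 14.27, 14.60 and 14.25 in AMLN LiFKO and at 12.06, 13.04 and 10.63 in AMLN Control (2.46, SE 0.46, and 1.82 without AMLN Control replicate 3), and Dgat2 was at 15.98, 15.90 and 16.01 in AMLN LiFKO and at 15.03, 15.18 and 15.06 in AMLN Control (0.88, SE 0.12). Cidec, a relative of Cidea, had 12.18, 11.63 and 10.64 in AMLN LiFKO and 13.20, 13.33 and 11.06 in AMLN Control, with overlap through Control replicate 3 and no call (-1.05, adjusted p = 0.315). Without Control replicate 3 its difference was -1.78 (adjusted p = 0.0687). LiFKO replicate 3 was also the lowest of its group for Cidec. A fit of the 6 AMLN libraries that took replicate number into account (a replicate block) did call Cidec. The fatty acid transporter gene Cd36 did not pass the test (0.76, SE 0.27, adjusted p = 0.0631). It passed without AMLN Control replicate 1 or 2, and was at 0.34 (adjusted p = 0.208) without AMLN Control replicate 3.

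Apolipoprotein genes gave 4 rises and 4 falls of 20. Apoe had the highest value of all genes in every AMLN LiFKO library (21.47) and rank 3 in every AMLN Control library (20.10), so its difference of 1.37, like that of Scd1, is one of ranks and carries no spread. Apoc2, the activator of lipoprotein lipase, was at 15.71, 15.69 and 15.69 in AMLN LiFKO and at 15.12, 14.99 and 14.93 in AMLN Control (0.68, SE 0.14). Mttp, which loads lipid onto nascent lipoproteins, was lower by 0.52 (SE 0.14, adjusted p = 0.0158), and that call did not hold without AMLN LiFKO replicate 3 or AMLN Control replicate 1. Of 19 genes of bile acids, oxysterols and sterol export 4 rose and 2 fell. Cyp46a1, a cholesterol hydroxylase best known from the brain, was at 13.59, 13.51 and 14.20 in AMLN LiFKO and at 7.79, 8.58 and 7.002 in AMLN Control (5.98, SE 0.54). Abcg5, part of the sterol exporter, rose by 0.63 (SE 0.13), and Abcb11, the bile salt pump, fell by 0.75 (SE 0.15). Cyp7a1, the rate-limiting enzyme of bile acid synthesis, was at 13.08, 11.90 and 12.84 in AMLN LiFKO and at 13.36, 13.55 and 14.54 in AMLN Control and did not pass the test (-1.21, SE 0.44, adjusted p = 0.0707). Apolipoprotein rises numbered 2 without AMLN LiFKO replicate 1, 2 or 3 or AMLN Control replicate 1, and falls 2 without AMLN LiFKO replicate 1 or 3 or AMLN Control replicate 1 or 2. For the sterol list, 2 rose and 1 fell without AMLN LiFKO replicate 2 or AMLN Control replicate 2, and 1 fell without AMLN LiFKO replicate 1.

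Amino acid catabolism showed rises and falls of named steps. Of 34 genes of this list and the urea cycle 9 rose and 5 fell. Prodh, proline dehydrogenase, was at 14.08, 14.21 and 14.60 in AMLN LiFKO and at 12.98, 13.30 and 12.96 in AMLN Control (1.22, SE 0.12, adjusted p = 1.16e-05). The enzymes that make cysteine from homocysteine fell, with Cbs at 13.07, 13.06 and 13.16 in AMLN LiFKO and at 14.05, 14.23 and 14.33 in AMLN Control (-1.11, SE 0.13), and Cth lower by 0.84 (SE 0.13). No library of these 3 genes crossed into the range of the other genotype. The falls of the list numbered 2 without AMLN Control replicate 3 and 3 without AMLN LiFKO replicate 1 or 3. In glucose and fructose metabolism 3 of 20 genes rose and 3 fell, and Khk, which phosphorylates fructose, was at 14.05, 14.14 and 14.05 in AMLN LiFKO and at 14.81, 14.93 and 15.11 in AMLN Control (-0.87, SE 0.15). The rises of that list numbered 1 without AMLN LiFKO replicate 1 or AMLN Control replicate 1 or 3.

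**Figure D3:**
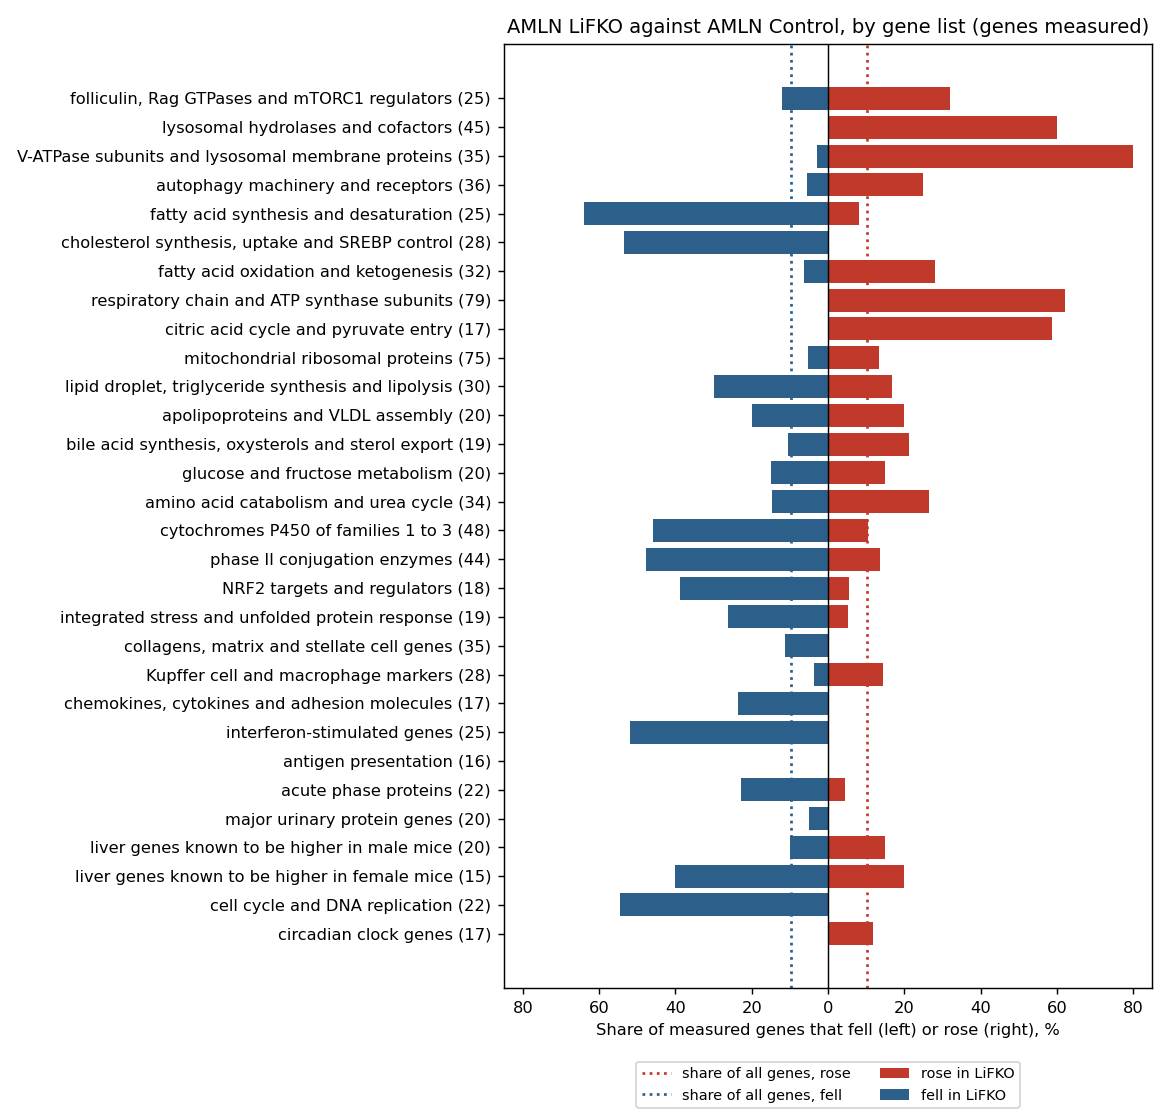
Share of the measured genes of each list that rose (red, to the right) or fell (blue, to the left) in AMLN LiFKO against AMLN Control, in percent, with the number measured in brackets. Dotted lines mark the shares over all 13815 genes, 10.1% for rises and 9.63% for falls. The rises reach furthest in both lysosomal lists, the respiratory chain and the citric acid cycle, and the falls in fatty acid and cholesterol synthesis, cytochromes P450, conjugation enzymes, interferon-stimulated and cell cycle genes.

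Enzymes of drug and steroid metabolism fell in larger number than they rose. Of 48 cytochromes P450 of families 1 to 3, 22 fell (19 to 21 with 1 AMLN library left out) and 5 rose, with a median of -0.48. Cyp2c38 was at 7.95, 6.85 and 8.30 in AMLN LiFKO and at 11.97, 11.88 and 10.28 in AMLN Control (-3.67, SE 0.41, adjusted p = 2.92e-05). Cyp2b9, which in mouse liver is known to be higher in females, was at 7.60, 8.32 and 5.998 in AMLN LiFKO and at 12.02, 12.41 and 10.72 in AMLN Control (-4.41, SE 0.61). Cyp2b13, another gene of that kind, fell by 5.02 (SE 0.67). Their neighbour Cyp2b10, the classic target of the receptor CAR, went the other way, with 7.70, 8.96 and 10.18 in AMLN LiFKO and 2.32, 5.54 and 6.68 in AMLN Control (4.10, SE 0.97, adjusted p = 0.00795), and was chosen after its values were seen. These genes belong to families of close copies, so reads may be split between members and the values are uncertain on that account.

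Of 44 phase II enzymes, which attach glutathione, sulfate or glucuronic acid, 21 fell (16 to 24 with 1 AMLN library left out) and 6 rose. Gstm3 was at 7.49, 7.54 and 8.54 in AMLN LiFKO and at 13.23, 13.26 and 11.30 in AMLN Control, where replicate 3 lay about 2 below the other Control libraries and still above every LiFKO library. Gsta3 fell by 0.99 (SE 0.13) and Gstm6 by 1.40 (SE 0.19). The sulfotransferase gene Sult1c2 rose, with 10.69, 10.72 and 10.61 in AMLN LiFKO and 8.03, 8.33 and 8.19 in AMLN Control (2.49, SE 0.30), as did Sult1e1 and Sult5a1, by 4.06 and 4.01 (SE 0.65 and 0.64, both chosen after their values were seen). Of 18 targets and regulators of NRF2, the activator of antioxidant genes, 7 fell and 1 rose, and 2 rose without AMLN Control replicate 2. Srxn1, a sulfiredoxin, was at 11.45, 11.38 and 11.17 in AMLN LiFKO and at 12.81, 12.50 and 12.31 in AMLN Control (-1.21, SE 0.20), and Nqo1, a quinone reductase, fell by 1.38 (SE 0.28). Hmox1, which breaks down haem, went against the rest of its list, at 11.91, 11.70 and 12.20 in AMLN LiFKO and 10.64, 10.62 and 10.79 in AMLN Control (1.26, SE 0.21, adjusted p = 0.000833).

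Genes with a known sex difference in mouse liver were also examined. Of 15 measured genes known to be higher in females 6 fell and 3 rose, and 6 falls were called in each fit that left out an AMLN library. The rises numbered 1 without AMLN LiFKO replicate 3 or AMLN Control replicate 1. Cyp17a1, a steroid hydroxylase, was at 7.01, 7.01 and 7.15 in AMLN LiFKO and at 10.46, 10.05 and 9.80 in AMLN Control (-3.05, SE 0.37). Of 20 known to be higher in males 3 rose and 2 fell, with Cyp4a12b at 13.96, 13.86 and 14.12 in AMLN LiFKO and 12.04, 12.08 and 12.34 in AMLN Control (1.83, SE 0.24) and Elovl3, an elongase, down by 3.76 (SE 0.57). The male-biased falls numbered 5 without AMLN Control replicate 2 and 1 without AMLN LiFKO replicate 3. Of 20 major urinary protein genes, which are close copies of each other, 1 fell. That gene, Mup3, had 16.59, 16.72 and 15.47 in AMLN LiFKO and 17.31, 17.21 and 18.09 in AMLN Control (adjusted p = 0.0404), a call lost in 5 of the 6 fits that left out an AMLN library.

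Interferon-stimulated genes were lower in AMLN LiFKO. Of 25 measured 13 fell (11 to 18 with 1 AMLN library left out) and the other 12 did not pass the test, with a median of -0.79. Isg15, a ubiquitin-like modifier, was at 7.29, 7.46 and 7.84 in AMLN LiFKO and at 9.98, 9.25 and 10.08 in AMLN Control (-2.24, SE 0.27, adjusted p = 6.67e-05). Oasl1, a regulator of the antiviral response, was at 7.57, 8.03 and 7.82 in AMLN LiFKO and at 10.36, 9.70 and 9.85 in AMLN Control (-2.16, SE 0.23). Ifit1, which binds viral RNA, fell by 2.08 (SE 0.25), and Ddx58, a sensor of viral RNA, by 0.74 (SE 0.12). None of these 4 genes had a LiFKO value inside the Control range. The transcripts of the list summed to 14.891 to 15.679 (log2) in AMLN LiFKO and 15.477 to 16.148 in AMLN Control. Of 16 antigen presentation genes limma called 0, and 0 had an unadjusted p under 0.05, while 1 rose without AMLN LiFKO replicate 1.

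Cell cycle genes were lower too. Of 22 measured 12 fell and the other 10 did not pass the test, with a median of -1.26 and all 22 differences negative. The count was 6 without AMLN LiFKO replicate 2 or AMLN Control replicate 1, and 8 without AMLN Control replicate 3. Mcm4, a subunit of the replicative helicase, was at 7.72, 7.62 and 8.01 in AMLN LiFKO and at 8.89, 9.20 and 9.38 in AMLN Control (-1.37, SE 0.19, adjusted p = 0.000147). Mcm6 and Mcm5, of the same helicase, fell by 1.55 and 1.53 (SE 0.27 and 0.32), and Rrm2, a subunit of ribonucleotide reductase, by 1.44 (SE 0.33). Their values ran between about 7 and 10 in these libraries, low in the deposited range. The summed level of the list was 13.017 to 13.465 in AMLN LiFKO and 13.75 to 14.155 in AMLN Control.

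Genes of collagen, matrix and stellate cells mostly missed the test. Of 35 measured 4 fell and 31 did not pass, with a median of -0.41, and the count was 1 without AMLN Control replicate 1 or 2 and 2 without AMLN LiFKO replicate 1 or 3. Col1a1, the main fibrillar collagen gene, was at 8.86, 9.13 and 8.87 in AMLN LiFKO and at 10.70, 10.93 and 9.80 in AMLN Control (-1.53, SE 0.44, adjusted p = 0.024). Its groups did not overlap, and the call was lost without AMLN LiFKO replicate 1 or 3 or AMLN Control replicate 1 or 2. Mmp12, the macrophage elastase, was at 6.20, 5.73 and 5.16 in AMLN LiFKO and at 10.83, 10.63 and 8.85 in AMLN Control (-4.41, SE 1.18, adjusted p = 0.0166), a call lost without AMLN LiFKO replicate 3 or AMLN Control replicate 1 or 2. Mmp13, a collagenase, was at 4.20, 1.11 and 3.73 in AMLN LiFKO and at 7.29, 7.38 and 6.85 in AMLN Control (-4.16, SE 0.97), and its call held in each such fit. Its value in AMLN LiFKO replicate 2 matches the lowest value of that library (1.11), so the size of this fall is uncertain. Col3a1 and Acta2, a marker of activated stellate cells, did not pass the test (adjusted p = 0.124 and 0.346). The list summed to 15.345 to 15.401 in AMLN LiFKO and 15.384 to 15.847 in AMLN Control, ranges that overlap. Its mean log2 values did not overlap, at 8.826 to 8.888 in AMLN LiFKO and 9.148 to 9.634 in AMLN Control. Of the 35 differences 31 were negative and 4 positive.

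Macrophage markers had no common direction. Of 28 measured 4 rose and 1 fell. Cd68, a lysosomal glycoprotein of macrophages, was at 10.69, 11.12 and 10.83 in AMLN LiFKO and at 10.06, 9.82 and 9.82 in AMLN Control (0.98, SE 0.27, adjusted p = 0.018), a call lost without AMLN LiFKO replicate 2 or AMLN Control replicate 2. The Kupffer cell receptors Vsig4 and Mrc1 had differences of 0.59 and 0.43 (adjusted p = 0.0413 and 0.0444), and both calls were lost without AMLN LiFKO replicate 2 or 3 or AMLN Control replicate 2 or 3. Lgals3, a lectin of recruited macrophages, was at 7.84, 8.51 and 9.36 in AMLN LiFKO and at 10.13, 10.0001 and 9.77 in AMLN Control (-1.40, adjusted p = 0.0174), a call lost without AMLN LiFKO replicate 1 or AMLN Control replicate 1. Trem2, a receptor of lipid-laden macrophages, did not pass the test (-1.62, SE 0.76, adjusted p = 0.159). A single rise (1 gene) was called without AMLN LiFKO replicate 2 or 3 or AMLN Control replicate 2 or 3, and 6 without AMLN LiFKO replicate 1. The summed level was 15.807 to 16.554 in AMLN LiFKO and 15.894 to 16.282 in AMLN Control. Of 17 chemokine, cytokine and adhesion genes 4 fell, 1 fell without AMLN LiFKO replicate 1 or AMLN Control replicate 2, and 2 fell without AMLN LiFKO replicate 2 or AMLN Control replicate 1. Ccl9, a chemokine, was at 9.74, 9.54 and 10.20 in AMLN LiFKO and at 11.11, 10.998 and 11.88 in AMLN Control (-1.50, SE 0.21, adjusted p = 0.000223) and kept its call throughout, while the calls of Ccl2 and Cxcl1 (-1.59 and -1.58) were lost in 4 and 3 of the 6 fits.

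Markers of other liver cells were measured in the same libraries. Endothelial markers summed to 14.855 to 14.977 in AMLN LiFKO and 14.483 to 14.659 in AMLN Control. Their mean log2 values overlapped, at 10.796 to 11.003 in AMLN LiFKO and 10.654 to 10.855 in AMLN Control, with a median change of 0.11. Of 12 markers 1 rose, the scavenger receptor gene Stab2, at 13.22, 13.24 and 13.16 in AMLN LiFKO and 11.84, 11.92 and 11.51 in AMLN Control (1.45, SE 0.14). Cholangiocyte markers summed to 11.464 to 12.36 in AMLN LiFKO and 12.408 to 12.951 in AMLN Control, with 4 differences positive, 4 negative and a median of -0.04. Of 8 measured 1, Sox9, had a call (adjusted p = 0.0484) that was lost in each of the 6 fits that left out an AMLN library. Of 13 lymphocyte and 9 neutrophil markers listed, 2 and 3 were measured, and limma called 0, with 0 at an unadjusted p under 0.05. Neutrophil markers summed to 7.647 to 9.641 in AMLN LiFKO and 8.382 to 8.816 in AMLN Control, and lymphocyte markers to 9.743 to 10.823 in AMLN LiFKO and 10.125 to 10.485 in AMLN Control. Erythroid markers overlapped between the groups, at 15.56 to 16.719 in AMLN LiFKO and 15.549 to 16.737 in AMLN Control, while 1 of 6, Alas2, which makes haem in red cell precursors, fell (-0.94, SE 0.15). Of 10 pancreatic acinar and adipocyte markers listed 2 were measured, and they summed to 8.537 to 9.065 in AMLN LiFKO and 9.617 to 10.017 in AMLN Control. The acinar elastase gene Cela1 fell (-0.85, SE 0.25), a call lost without AMLN LiFKO replicate 3 or AMLN Control replicate 1 or 3 and with hepatocyte centring. The adipocyte gene Cfd differed by -1.22 with no call (adjusted p = 0.175). The part of these cells in the changes of the interferon, cell cycle, matrix, macrophage and lipid droplet lists was not tested.

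**Figure D4:**
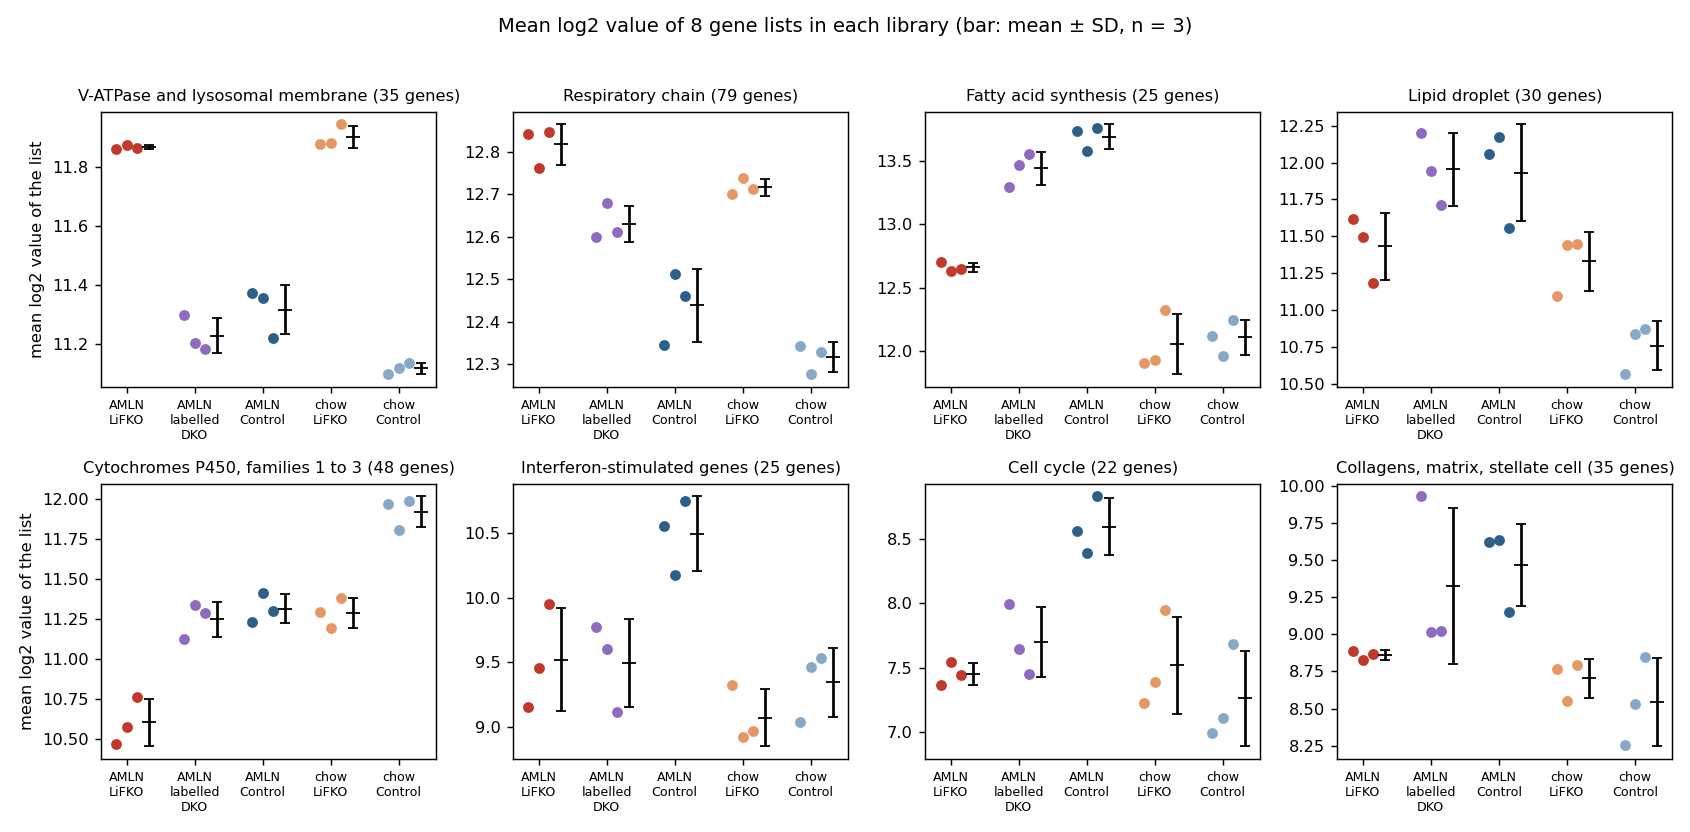
Mean log2 value of 8 gene lists in each of the 15 RNA-seq libraries, with AMLN groups and then chow groups along the horizontal axis and LiFKO left of its Control. Points are libraries and bars show the mean ± SD (n = 3). The fatty acid synthesis list lies between 12.631 and 12.7 in AMLN LiFKO and between 13.579 and 13.765 in AMLN Control, and the cell cycle list between 7.365 and 7.541 in AMLN LiFKO and between 8.39 and 8.829 in AMLN Control.

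Acute phase, stress and clock genes gave few calls in number. The shares of falls in the acute phase and stress lists were above the 9.63% of all genes. Of 22 acute phase genes 5 fell (22.7%) and 1 rose. Hp, haptoglobin, was at 16.20, 16.61 and 16.59 in AMLN LiFKO and at 17.76, 17.80 and 17.47 in AMLN Control (-1.21, SE 0.28), and Crp rose by 0.82 (SE 0.13). Acute phase falls numbered 2 without AMLN LiFKO replicate 1 or 2. Of 19 genes of the integrated stress and unfolded protein responses 5 fell (26.3%) and 1 rose. The falls numbered 1 without AMLN Control replicate 1, 2 without AMLN LiFKO replicate 1 or 3, and 3 without AMLN LiFKO replicate 2 or AMLN Control replicate 2 or 3. Fgf21, a hormone that this response and fasting induce, was at 7.01, 6.37 and 4.58 in AMLN LiFKO and at 8.79, 8.19 and 6.62 in AMLN Control (-1.88, SE 0.61, adjusted p = 0.0419), a call lost without AMLN LiFKO replicate 2 or 3 or AMLN Control replicate 1 or 2. Of 17 clock genes 2 rose (11.8%, against 10.1% of all genes), and 1 rose without AMLN LiFKO replicate 1 or any 1 of the AMLN Control replicates. Cry1, a repressor of the clock, was at 9.37, 9.50 and 9.51 in AMLN LiFKO and 8.12, 7.70 and 8.41 in AMLN Control (1.38, SE 0.31).

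The same genotypes on chow set the response beside one in libraries not shared with the AMLN comparison. Both comparisons came from the same fit and share its estimate of the spread of each gene, so their calls are not independent. On chow 1723 genes rose (12.5%) and 1822 fell (13.2%) in LiFKO against Control. When libraries were centred on hepatocyte markers these became 3346 rises and 339 falls, with a median over all genes of 0.31 on chow, against -0.05 before. Of genes that rose on AMLN diet 927 also rose on chow (66.6% of the AMLN rises and 53.8% of the chow rises), and 8 fell. Of genes that fell on AMLN diet 721 also fell on chow (54.2% of the AMLN falls and 39.6% of the chow falls), and 14 rose. The lysosome and respiration lists had like counts on both diets, with 27 and 29 hydrolases, 28 and 26 lysosomal membrane genes, and 49 and 54 respiratory subunits rising on AMLN and chow. Cell cycle genes differed in number, with 12 falls of 22 on AMLN diet. On chow limma called 0 of them, with 2 at an unadjusted p under 0.05, and the test of the difference between diets called 1, Mcm6.

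**Figure D5:**
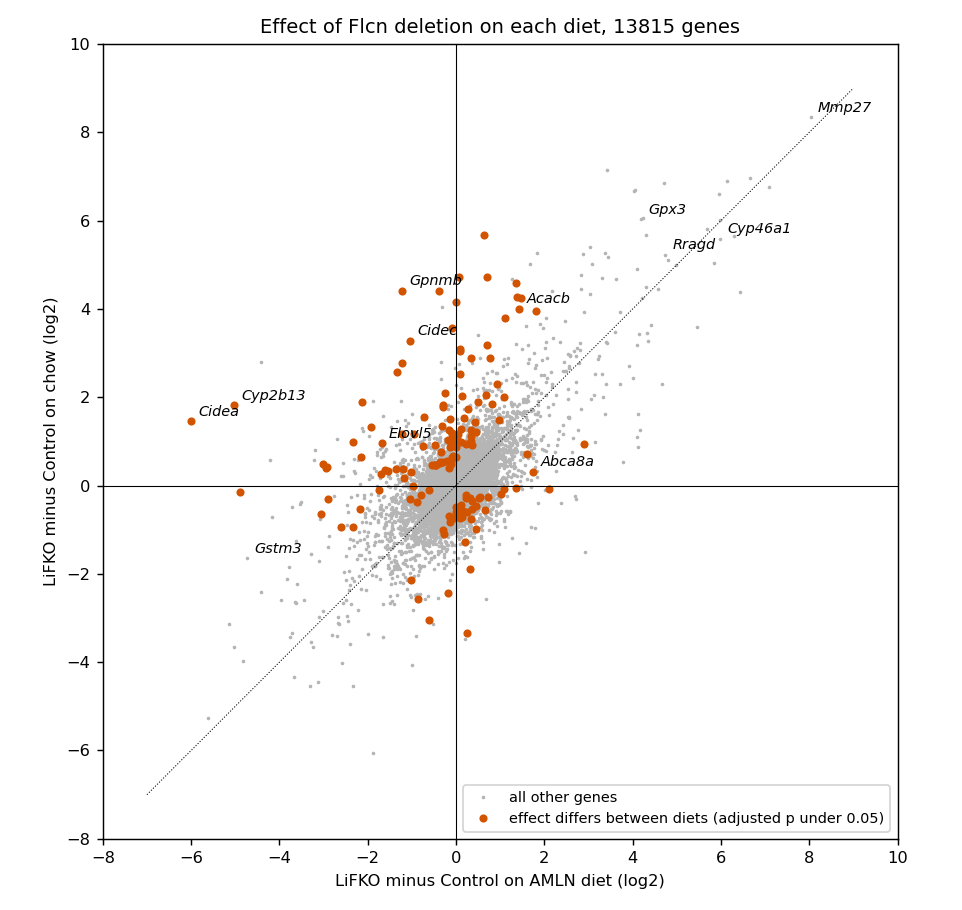
LiFKO minus Control on AMLN diet (horizontal) against LiFKO minus Control on chow (vertical), in log2, for 13815 genes. The dotted line marks equal effects, and orange points are the 144 genes whose effect differed between diets at an adjusted p under 0.05 (limma). Across genes, which are not independent replicates, r was 0.645 and rho 0.522.

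The effect of Flcn loss differed between diets for 144 genes (1.04%), with 39 effects more positive on AMLN diet (0.282%) and 105 more negative (0.76%). This count was fragile: it was 27 without AMLN Control replicate 2, 30 without AMLN Control replicate 1 or chow Control replicate 2, and 334 without AMLN Control replicate 3. Fatty acid synthesis held 9 of the 144 genes. Elovl5 was at 14.77, 14.34 and 13.81 in AMLN LiFKO and at 16.23, 16.17 and 15.56 in AMLN Control, and at 13.55, 14.21 and 14.31 in chow LiFKO and 12.78, 13.05 and 13.37 in chow Control. Its effect was -1.68 on AMLN diet and 0.96 on chow (difference -2.64, SE 0.37, adjusted p = 0.00763). Acacb rose on both diets and more on chow (1.43 on AMLN diet and 4.01 on chow, adjusted p of the difference = 0.000196). Lipid droplet genes held 5, among them Cidea, which stood at 3.21, 4.19 and 5.56 in chow LiFKO and at 2.55, 3.73 and 2.32 in chow Control, so on chow both genotypes were low. Gpnmb, a known TFE3 target, rose on chow, with 7.92, 9.60 and 8.20 in chow LiFKO and 4.55, 3.13 and 4.82 in chow Control. On AMLN diet it had 8.03, 7.81 and 8.08 in LiFKO and 9.71, 9.75 and 8.14 in Control, with no call (difference -5.64, SE 0.97, adjusted p = 0.0203). Its AMLN difference was -1.23, and -1.76 without AMLN Control replicate 3 (adjusted p = 0.238 and 0.112). The LiFKO values of Gpnmb overlapped between diets, and its AMLN Control values all lay above its chow Control values. In the other direction Abca8a, a lipid transporter gene, rose by 1.75 on AMLN diet and differed by 0.32 on chow (difference 1.43, SE 0.28), and Slco1a4, an organic anion transporter gene, rose by 2.90 on AMLN diet and by 0.95 on chow.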

How the data were processed

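The members were all genes of the deposited RNA-seq table, and the gene lists were chosen with earlier results of these data known. The authors deposited log2 values, quantile normalized, with an offset and depth not given in the sources used here; per the submitters' processing notes they used bcl2fastq 2.17, Trimmomatic 0.32, STAR 2.6.0c, featureCounts and limma on mm9. Quantile normalization gives every library the same set of values, so a shift shared by most genes cannot show. Group means were fitted over all 15 libraries in limma 3.58.1 (R 4.3.3), with a trended variance prior and 10 residual degrees of freedom. Tests were two-sided, with Benjamini-Hochberg adjustment over 13815 genes. Alternatives were other sample sets, a replicate block, cyclic loess, centring on hepatocyte markers, other variance settings, a filter on low values and leaving out each LiFKO or Control library in turn. Replicate numbers were not taken as pairs, because the labels do not say that they pair libraries. Same-numbered AMLN LiFKO and Control deviations correlated at 0.16, -0.039 and 0.231, and differently numbered ones at -0.238 to 0.11. The labels name no batch.

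Named genes were Flcn and Tfe3, up to 15 per direction with the largest called, non-overlapping change above the median level, up to 5 called members per list by p, and fixed genes of the pathways. Genes whose response differed most between diets were added, 198 in all. TFE3 peaks carry the authors' HOMER score, as deposited, and were made with Bowtie2 2.2.8 and HOMER 4.11 on chow and Bowtie2 2.2.6 and HOMER 4.4 on the FPC diet, per the submitters' processing notes. Gene starts came from the deposited mm9 positions with strand from RefSeq GRCm38.p6. Strand was matched by Entrez ID, and by symbol where that gave none. A strand was found for 9914 genes, and 3901 had none.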

Additional observations from a re-analysis of the deposited data

Results flagged for a closer look

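For 32 named genes the effect of Flcn loss differed between the diets by the interaction test (limma adjusted p under 0.05 over all genes), 23 lower and 9 higher on AMLN diet than on chow. The value given for each gene is the AMLN effect minus the chow effect, in log2.

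In fatty acid synthesis the differences were -1.67 for Fasn, -1.97 for Scd1, -2.58 for Acacb, -2.64 for Elovl5 and -1.36 for Pgd. In lipid storage and transport they were -7.45 for Cidea, -4.32 for Cidec, -1.66 for G0s2, -2.12 for Cd36, -1.38 for Apoc2 and -0.99 for Pnpla7. Elovl5 fell on AMLN diet and rose on chow, while Fasn fell on both and Acacb, Apoc2 and Pnpla7 rose on both.

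Among other genes with a lower effect on AMLN diet, the differences were -5.64 for Gpnmb, -1.40 for Mfge8, -1.40 for Gpc1, -2.39 for Epha2 and -3.35 for Tubb2a. They were -0.58 for Gsr and -1.59 for Srxn1, both antioxidant genes, -0.86 for Gapdh, a glycolytic enzyme, -1.64 for Apcs, an acute phase protein, and -1.89 for Mcm6. The differences of the sex-biased Cyp17a1 and Cyp2b13 were -2.41 and -6.85. Epha2, a receptor kinase gene, had 9.27, 10.54 and 10.09 in AMLN LiFKO and 11.33, 11.37 and 10.86 in AMLN Control, and 10.48, 10.85 and 10.37 in chow LiFKO and 9.73, 9.28 and 9.19 in chow Control.

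The effect was higher on AMLN diet by 1.95 for Slco1a4, 1.43 for Abca8a, 1.16 for Gpcpd1, 0.92 for Cyp4v3 and 0.90 for Slc17a2. It was higher by 1.22 for Notum, 0.72 for Txlng, 0.59 for Sirt3 and 1.72 for Cela1. Notum, an enzyme that inactivates Wnt proteins, had 10.07, 10.23 and 10.23 in AMLN LiFKO and 9.25, 9.69 and 9.61 in AMLN Control, and 9.80, 9.89 and 10.10 in chow LiFKO and 10.37, 10.79 and 10.32 in chow Control. It rose on AMLN diet and fell on chow.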

How the results depend on the processing

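The counts of genes that rose and fell on AMLN diet (1392 and 1330) were within 1.5 times of these under the alternatives run except centring on hepatocyte markers, which gave 877 rises and 564 falls on AMLN diet and 3346 rises and 339 falls on chow. It moved the median over all genes to 0.03 on AMLN diet and 0.31 on chow. The 6 AMLN libraries alone gave 1113 and 1001 genes. Leaving out 1 LiFKO or Control library gave 1045 to 1230 rises and 940 to 1168 falls on AMLN diet, and 1385 to 1810 rises and 1308 to 1941 falls on chow. The count of genes that differed between diets (144) ranged from 27 to 334 over the left-out libraries, and was 72 with eBayes without trend, 533 with library weights and 254 with hepatocyte centring. With a replicate block over 15 libraries, 1352 genes rose and 1262 fell on AMLN diet, and 141 differed between diets; a block within the 6 AMLN libraries gave 1138 and 1079, and 33 rather than 49 respiratory chain rises. The samples share only a number, and 7 of the 198 named genes lost their call under the block over 15 libraries, while Cyp7a1 gained one (adjusted p = 0.0199). Of 184 named genes with a call, 146 kept it in each of the 6 fits that left out an AMLN library, and 18 lost it without AMLN Control replicate 3. Hepatocyte centring ended 29 calls, and gave 2 rises of mitochondrial ribosomal genes, 2 rises and 0 falls of apolipoprotein genes and 2 falls of amino acid genes. No named gene changed sign while called. The share of genes with a TFE3 peak was higher for genes that rose than for those that fell or had no call with the FPC LiFKO list (81.8%, 65.6% and 62.1%), whose header lists a library named as an input among the pooled ChIPs, within 2 kb (70.4%, 55.6% and 55.6%) and 50 kb (95.4%, 88.6% and 86.4%), and for peaks at or above the median score (71.7%, 49.95% and 50.7%). Depth is unknown, so low values carry an error that these data do not give.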
